A study of Mus musculus with 6 samples.

Results

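Transcripts of 4 genes were followed in resident peritoneal macrophages loaded with oxidized LDL, those of the genes for beta-catenin (Ctnnb1), the Wnt co-receptor LRP6 (Lrp6), the gap junction protein connexin 43 (Gja1) and the sorting receptor sortilin (Sort1), which are 4 of the 81690 transcripts with values on each array. They were picked because the study of plaque regression names these genes, and with earlier results of these data known. Their identifiers were paired with the genes by the list that chose them (ENSMUST00000007130_at for Ctnnb1, ENSMUST00000032322_at for Lrp6, ENSMUST00000068581_at for Gja1 and ENSMUST00000102632_at for Sort1). This pairing was taken as given, since 0 of the 4 identifiers are listed in the reference gene table used here. The macrophages came from female C57BL/6J mice of 8 to 12 weeks, with no genetic change named in the labels, and were washed from the abdominal cavity, pooled over the mice of an experiment and selected by adherence to the plate. In each of 3 experiments, cells of 1 pool were incubated for 24 h with 25 µg/mL human LDL oxidized with copper sulfate (oxLDL) or with vehicle (PBS), which gave 3 oxLDL and 3 vehicle arrays. oxLDL turns macrophages into foam cells, the lipid-filled cells of the atherosclerotic plaque. The comparison asks how the message of these genes differed after lipid loading in culture. For plaque regression, the study lowered plasma lipids in mice and examined plaque macrophages, so the signs here cannot be read as the reverse of those results. The labelled cell type was not checked against marker genes, because the other identifiers were not paired with genes here.

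In canonical Wnt signaling, a secreted Wnt protein binds a Frizzled receptor together with LRP6 or its relative LRP5. The complex that marks beta-catenin for destruction is then inhibited, beta-catenin accumulates, enters the nucleus and activates genes with the TCF/LEF transcription factors. Beta-catenin also links cadherins to the actin cytoskeleton at cell contacts, and it is known for a part in macrophage migration. Connexin 43 is often used as a Wnt target gene. The study measured both Lrp6 and Gja1 as known Wnt target genes. Both transcripts were higher in macrophages of regressing than of progressing plaques in its aortic transplant model. Sortilin is not a Wnt component. It carries proteins from the Golgi apparatus to endosomes and lysosomes, binds lipoproteins that contain apolipoprotein B, and lies in a human locus associated with LDL cholesterol. The arrays measured transcripts, and much of the control of beta-catenin acts on the stability of the protein, which was not measured here.

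With oxLDL, the transcripts of Lrp6 and Sort1 were each 1.74-fold lower and that of Ctnnb1 was 1.26-fold higher, while the value of Gja1 was low in both groups and its difference did not pass the test. Values are on the log2 scale of the deposited table, on which a difference of 1 is 2-fold. They were compared with limma, a linear model fitted across 40845 transcripts, those with a mean over the 6 arrays above 8.74, the median of all transcripts. Ctnnb1, Lrp6 and Sort1 passed this limit and Gja1 did not. Of these 3, Ctnnb1 was called higher at a q-value (an adjusted p that estimates the false discovery rate) below 0.05, as were 10.7% of all tested transcripts. Lrp6 and Sort1 were called lower, as were 30.8% of all tested transcripts, so a lower call by itself was common on these arrays. That background depended on the scaling, with 4369 tested transcripts called higher and 12587 lower in the deposited values, and 9979 higher and 8794 lower after quantile normalization of those values across the arrays. It also moved, down or up, when arrays were left out. Called higher were 2735 without vehicle replicate 1, 2871 without oxLDL replicate 1, 1521 without experiment 1 and 4565 without oxLDL replicate 3. Called lower were 8368 without vehicle replicate 3, 5573 without experiment 1, 6842 without experiment 3 and 14845 without oxLDL replicate 2. With the added requirement of a 2-fold change that the study used, 0 of the 3 were called higher and 0 lower, against 0.686% and 2.45% of all tested transcripts.

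**Figure D1:**
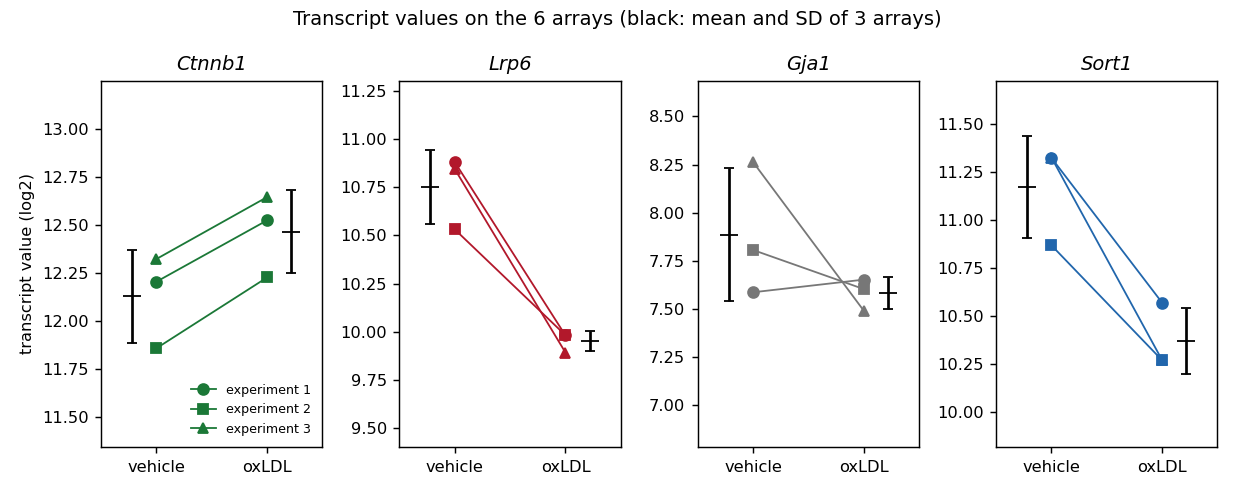
Transcript value (log2) of Ctnnb1, Lrp6, Gja1 and Sort1 on each of the 6 arrays, with a line joining the vehicle and oxLDL arrays of 1 experiment and, in black, the mean and SD of 3 arrays. The axes differ in position but span the same range. The oxLDL arrays lay below all vehicle arrays for Lrp6 and Sort1, as for 32.5% of the tested transcripts, and the 3 lines of Ctnnb1 rose in parallel.

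Beta-catenin is the protein through which the canonical pathway reaches the genome. The value of Ctnnb1 was 12.21, 11.86 and 12.32 with vehicle and 12.52, 12.23 and 12.64 with oxLDL in experiments 1, 2 and 3. The array of experiment 2 was the lowest of its group in both groups, and the groups overlapped, since the oxLDL value of experiment 2 was below the vehicle value of experiment 3. The means were 12.13 ± 0.24 with vehicle and 12.47 ± 0.21 with oxLDL (SD, n = 3 arrays). The log2 fold-change was 0.34 (standard error 0.14, 95% interval 0.02 to 0.65, q = 0.0407 from limma). Within the experiments the change was 0.32, 0.37 and 0.32, with an SD of 0.028, so the 3 changes lay closer together than the arrays of either group. Higher in all 3 pairs of arrays were 20.3% of the tested transcripts. In the fit with the pairs of arrays as a random effect, the standard error was 0.11 and q = 0.0115 from limma. In the fit without the pairs, the call was near its threshold and was lost with Benjamini-Hochberg adjustment (adjusted p = 0.106 from limma), without the filter on dim transcripts (q = 0.0775), and when vehicle replicate 1 or 2, oxLDL replicate 1 or 3, or the whole of experiment 1 or 3 was left out (q from 0.0605 to 0.151). Without vehicle replicate 2, whose paired oxLDL array was also the lowest of its group, the log2 fold-change was 0.20. It was 0.25 without oxLDL replicate 3, 0.31 without oxLDL replicate 1, 0.37 without vehicle replicate 1, 0.34 without experiment 1 and 0.34 without experiment 3, so the call was also lost where the change was no smaller.

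The tested transcripts, the brighter ones of the array, were on balance lower with oxLDL in the deposited values, against the direction of Ctnnb1. Their median change was -0.10 in these values, 0.02 after quantile normalization and -0.004 after cyclic loess, so this direction depended on the scaling. As deposited, the median change of the tested transcripts was -0.06, -0.02 and -0.24 (log2) in experiments 1, 2 and 3, while the median of the limma estimates over all 81690 transcripts was 0.002. Among the 2000 transcripts nearest to Ctnnb1 in mean value, the median change over the 3 experiments was -0.09 (-0.06, 0.02 and -0.20 within experiments 1, 2 and 3), so that Ctnnb1 stood 0.42 above it. In experiments 1, 2 and 3, 90.2%, 91.5% and 94.1% of the tested transcripts had a lower change than Ctnnb1. After quantile normalization of the deposited values, which gives every array the same distribution, the log2 fold-change of Ctnnb1 was 0.44 (q = 0.024).

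LRP6 is the co-receptor at the cell surface, and Lrp6 changed in the other direction. Its value was 10.88, 10.53 and 10.84 with vehicle and 9.98, 9.98 and 9.89 with oxLDL in experiments 1, 2 and 3. All oxLDL arrays were below all vehicle arrays, as for 32.5% of the tested transcripts, and the oxLDL arrays lay within 0.09 of each other while the vehicle arrays spanned 0.35. The means were 10.75 ± 0.19 with vehicle and 9.95 ± 0.05 with oxLDL (SD, n = 3). The log2 fold-change was -0.80 (standard error 0.11, 95% interval -1.04 to -0.56, q = 0.000209 from limma). The interval includes the 2-fold threshold of -1, so a 2-fold fall was neither reached by the estimate nor outside its error. Within the experiments the change was -0.90, -0.55 and -0.95, smallest in experiment 2, where the vehicle value was lowest. Lower in all 3 pairs of arrays were 46.4% of the tested transcripts.

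Sortilin works in lipoprotein handling rather than in Wnt signaling, and the values of Sort1 ran close to those of Lrp6. The value of Sort1 was 11.32, 10.87 and 11.32 with vehicle and 10.57, 10.27 and 10.27 with oxLDL in experiments 1, 2 and 3. The groups did not overlap, as for 32.5% of the tested transcripts in this direction, and the vehicle array of experiment 2 was again the lowest of its group. The means were 11.17 ± 0.26 with vehicle and 10.37 ± 0.17 with oxLDL (SD, n = 3). The log2 fold-change was -0.80 (standard error 0.14, 95% interval -1.11 to -0.49, q = 0.000893 from limma). Within the experiments the change was -0.75, -0.60 and -1.05, so that only experiment 3 passed 2-fold, and 46.4% of the tested transcripts were likewise lower in all 3 pairs.

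Transcripts of similar brightness were also lower with oxLDL, by less. The median change of the 2000 transcripts nearest in mean value was -0.13 for Lrp6 and -0.12 for Sort1. Relative to these medians the change was -0.67 for Lrp6 and -0.68 for Sort1. Of the tested transcripts, 4.27% had a lower change than Lrp6 and 4.27% a lower change than Sort1. After quantile normalization the log2 fold-changes were -0.65 (q = 0.000835) and -0.66 (q = 0.00372), and with a loess curve fitted to each array in turn they were -0.68 and -0.68, so the calls of both genes held under these scalings. They also held with each array or experiment left out, where the log2 fold-change of Lrp6 stayed between -0.93 and -0.72 and that of Sort1 between -0.95 and -0.67. Without experiment 2, limma gave all tested transcripts a common variance, so the calls of that setting say little about single genes.

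**Figure D2:**
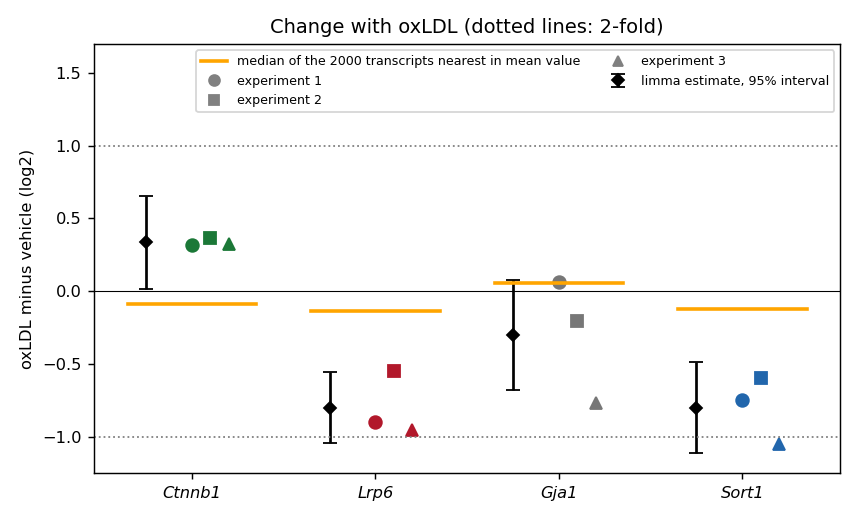
Difference between oxLDL and vehicle (log2) for each gene, with the limma estimate and its 95% interval in black, the 3 experiments as coloured symbols, the median of the 2000 transcripts nearest in mean value as an orange line, and the 2-fold thresholds as dotted lines. Only the value of Sort1 in experiment 3 (-1.05) passed 2-fold, and the 3 experiments of Gja1 were the most scattered.

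Connexin 43 forms the channels of gap junctions between cells. The value of Gja1 was 7.59, 7.81 and 8.26 with vehicle and 7.65, 7.60 and 7.49 with oxLDL in experiments 1, 2 and 3. The groups overlapped, and the vehicle array of experiment 3 stood above the other 5 arrays. The means were 7.88 ± 0.34 with vehicle and 7.58 ± 0.08 with oxLDL (SD, n = 3). The mean over the 6 arrays, 7.73, was 1.01 below the limit for testing, and 18.1% of all transcripts were dimmer, and whether the value exceeded background was not assessed. In a fit of all 81690 transcripts the log2 fold-change was -0.30 (standard error 0.16, 95% interval -0.68 to 0.08, q = 0.11 from limma). Within the experiments the change was 0.07, -0.20 and -0.77. Leaving out arrays moved the log2 fold-change both ways, to -0.11 without vehicle replicate 3 (q = 0.278), -0.07 without experiment 3 (q = 0.324), -0.45 without vehicle replicate 1 (q = 0.053) and -0.49 without experiment 1 (q = 0.137). The 2000 transcripts nearest in mean value had a median change of 0.06, in the other direction. The interval includes both no change and a fall of 0.68, so a fall as large as the rise of Ctnnb1 lies within the error of 3 arrays per group.

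**Figure D3:**
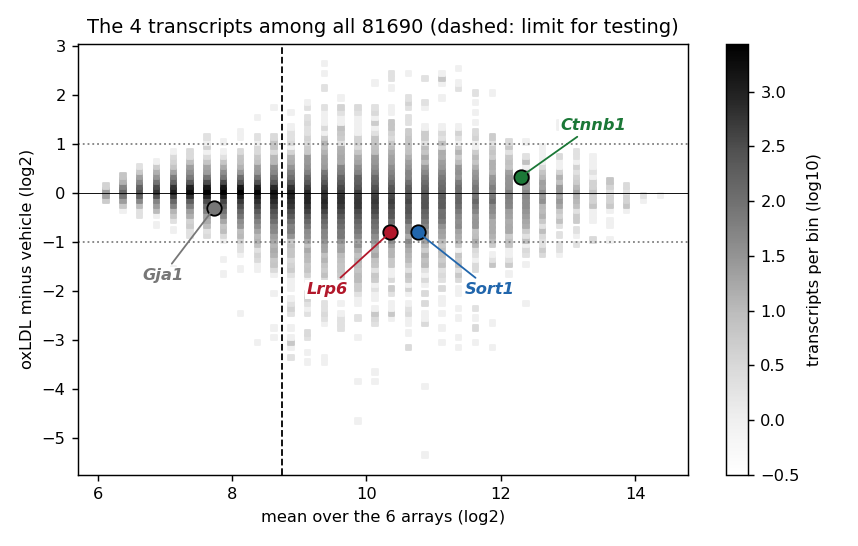
Difference between oxLDL and vehicle against the mean over the 6 arrays (both log2) for all 81690 transcripts, binned and shaded by number per bin on a log scale, with the 4 genes marked. The dashed line at 8.74 is the limit for testing and the dotted lines are 2-fold. Gja1 lay to the left of the limit, and Ctnnb1 was among the brightest transcripts, with 98.9% of all transcripts dimmer.

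The changes of the beta-catenin transcript and of the transcript of its upstream co-receptor had opposite signs in all 3 experiments. The difference between the changes of Ctnnb1 and Lrp6 was 1.22, 0.92 and 1.27 (log2) in experiments 1, 2 and 3, and between Ctnnb1 and Sort1 it was 1.07, 0.96 and 1.37. In contrast, the difference between the changes of Lrp6 and Sort1 was -0.15, 0.05 and 0.10, with a mean of -0.0003 ± 0.13 (SD, n = 3 experiments) and no constant sign. Each of the 6 pairs of genes was compared by an exact permutation test of the within-array difference, two-sided, with 3 arrays against 3. The p was 0.10 for Ctnnb1 against Lrp6, Ctnnb1 against Gja1, Ctnnb1 against Sort1, Lrp6 against Gja1 and Gja1 against Sort1 (0.12 with Benjamini-Hochberg adjustment over the 6), which is the smallest p that 3 arrays against 3 allow in this exact test. It ignores the pairs of arrays, and with swaps kept within the 3 pairs the smallest exact p is 0.25, so neither exact test can pass 0.05. The p was 1.0 for Lrp6 against Sort1, which does not show that they change alike. Over the 6 arrays, Pearson's r was 0.97 between Lrp6 and Sort1 and -0.53 between Ctnnb1 and Lrp6, given as a description, since these arrays hold both groups and any transcripts that differ between them are correlated. Such likeness was common for the falling pair, with 3010 tested transcripts at r over 0.95 with Lrp6 and 1967 with Sort1, against 226 with Ctnnb1. These transcripts were not paired with genes here, so none is named.

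No other row of the table held the values of any of the 4 transcripts to 6 decimals. On all 6 arrays, 3 other rows lay within 0.1 (log2) of Ctnnb1, 1 within 0.1 of Lrp6, and 0 within 0.1 of Gja1 or Sort1. Whether these rows are other transcripts of the same genes was not tested. The values stand for the exons that the probe sets of these transcripts cover, and transcripts of 1 gene that share exons share probes.

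**Figure D4:**
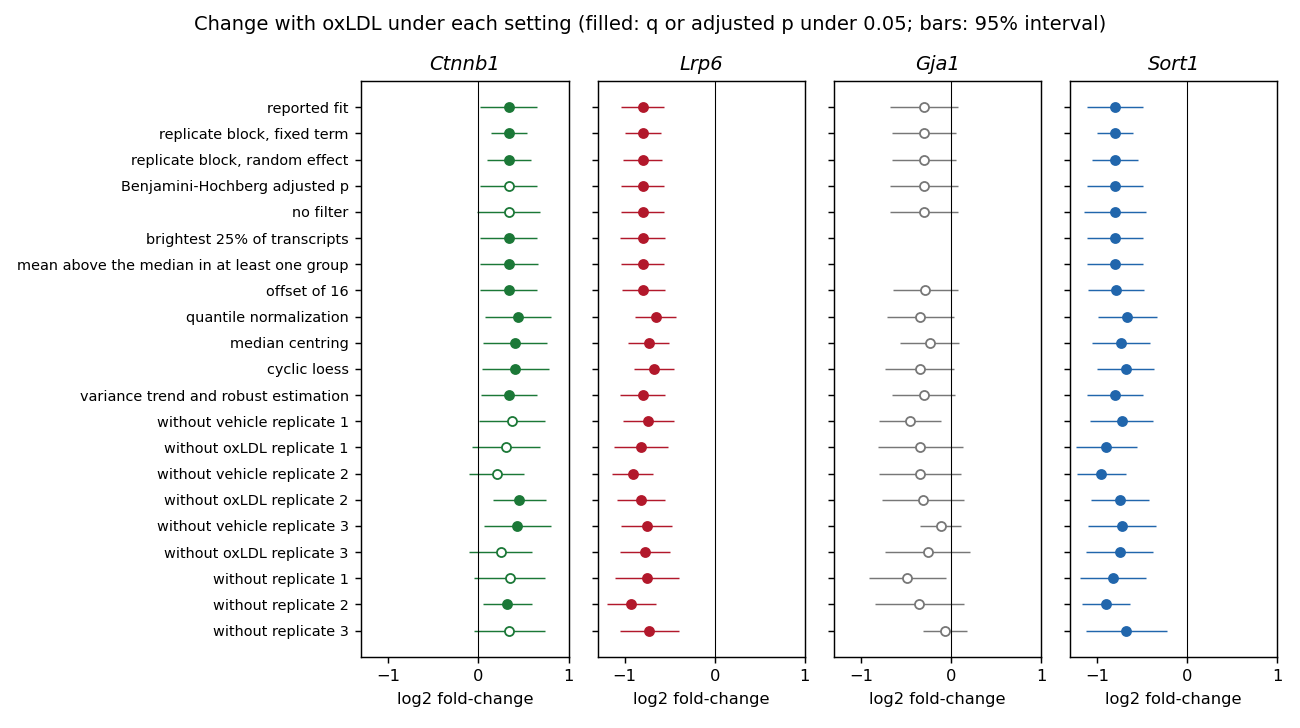
Log2 fold-change (oxLDL minus vehicle) of each gene in the reported fit and under each of 20 alternative settings, with 95% intervals, filled where the q-value or adjusted p was below 0.05. All points of Lrp6 and Sort1 are filled and left of 0, those of Ctnnb1 are right of 0 and filled or open depending on the setting, and all points of Gja1 are open.

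TCF/LEF and AP-1 elements were among the motifs that the study's scan found overrepresented near genes upregulated in plaque macrophages during regression. The upstream sequences of Ctnnb1, the pathway's effector, and Gja1, which the study measured as a Wnt target, are shown to let these letters be read in place. They are the 250 bases before the annotated start, from RefSeq on GRCm38.p6 (plus strand for both), and the table used held 3 windows for these 2 of the 4 genes. Capitals mark matches to CTTTGA on either strand (TCF/LEF, found in 13.8% of 32851 windows of this length) or to TGANTCA on either strand (AP-1, found in 6.75%). Ctnnb1 has 2 annotated starts, and the window shown, chr9:120933150-120933399, lies before the first. The Gja1 window is chr10:56377050-56377299.
Ctnnb1: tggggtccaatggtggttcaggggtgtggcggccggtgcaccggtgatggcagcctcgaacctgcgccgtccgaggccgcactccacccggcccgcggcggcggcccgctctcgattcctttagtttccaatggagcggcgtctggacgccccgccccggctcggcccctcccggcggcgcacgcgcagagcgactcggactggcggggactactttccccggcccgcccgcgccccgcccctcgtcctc
Gja1: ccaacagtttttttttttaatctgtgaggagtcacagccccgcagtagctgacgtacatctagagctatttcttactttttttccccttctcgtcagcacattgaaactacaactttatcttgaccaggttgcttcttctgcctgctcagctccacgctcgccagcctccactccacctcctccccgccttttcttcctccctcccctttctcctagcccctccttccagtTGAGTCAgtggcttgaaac
The Ctnnb1 window shown held 0 matches to either pattern and was 74.8% G and C, with 35 CG pairs. The window before the second start, chr9:120933328-120933577, overlaps it, is not printed, held 0 matches too and was 74.4% G and C, with 43 CG pairs. The Gja1 window held 0 matches to CTTTGA and 1 to TGANTCA, starting 19 bases before the annotated start, and was 50% G and C, with 6 CG pairs. A match here is a match of letters and no measurement of binding. The study scanned regulatory regions predicted from macrophage chromatin, over a wider stretch around gene starts. It used weighted patterns in place of fixed letters, so the 0 matches to CTTTGA in these short windows do not bear on its finding.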

How the data were processed

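RNA of the 6 macrophage cultures was hybridized to Affymetrix Mouse Exon ST arrays. Per the paper's methods, the authors applied quantile normalization at the probe level with no background step, then made transcript summaries with PLIER (also named in the submitters' processing notes) from CustomCDF version 15 probe sets of Ensembl release 65 transcripts, and deposited a log2 value per transcript and array. That the base is 2 was judged from the values, which ran from 5.95 to 14.42, and an offset before the logarithm is not given in the sources used here. The values were not rescaled for the reported fit. Quantile normalization before summary leaves differences in the medians of the summarized values, so other scalings were tried. Signal over background was not assessed, and no depth applies to arrays, where the 3 arrays per group limit the precision.

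Groups and replicate numbers came from the sample titles. Transcripts with a mean above 8.74, the median of all 81690, were tested (40845) with limma 3.58.1 in R 4.3.3, using empirical Bayes variances, 0.1 as the prior proportion changed and no covariate, as in the study's methods, two-sided. Q-values followed Storey's method over all tested transcripts, in an implementation written for the purpose. Gja1 failed the filter and was given its value from the same fit on all transcripts. The script was tested on simulated data. Figures were drawn with matplotlib 3.10.9.

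Same-numbered arrays share a pool of cells. The deviations of the tested transcripts from their group means correlated at 0.51, 0.67 and 0.58 between same-numbered arrays and at -0.53 to -0.04 between others, so the numbers pair the arrays. The study paired its cultures by pool, but its limma test is described with no term for the pairs, so the reported fit omits it too, and a replicate block was tried as an alternative.

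The alternatives were that block as a fixed or random term, Benjamini-Hochberg adjustment, 3 other filters, an offset of 16 on the linear scale, quantile normalization, median centring, cyclic loess, a variance trend with robust estimation, and each array or experiment left out. The named genes are the 4 members. The members and lists were chosen with earlier results of these data known. Lists of other Wnt and sortilin genes and of cell type markers were set up but not analysed here, because no other identifier was paired with a gene.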

Additional observations from a re-analysis of the deposited data

How the results depend on the processing

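Lrp6 and Sort1 stayed lower with a q-value or adjusted p below 0.05 under each of the 20 alternatives, and Gja1 stayed uncalled under the 18 that gave it a value (the 2 filters that left it out gave none, and the fit with no filter is the one its reported value comes from). No gene reversed its direction. The count of 2 genes called lower, and the counts of 0 past 2-fold, were the same under each of the 20. The log2 fold-change of Ctnnb1 was 0.34 with Benjamini-Hochberg adjustment and with no filter, but was not called, which left 0 genes called higher. With each array or experiment left out, it ranged from 0.20 to 0.45, and the number of genes called higher from 0 to 1; that of Gja1 ranged from -0.49 to -0.07. With the replicate block as a random effect, all 3 calls held, with q = 0.0115 for Ctnnb1, 2.75e-05 for Lrp6 and 0.000101 for Sort1, and q = 0.0768 for Gja1, while the tested transcripts called higher and lower rose to 5847 and 15663. With the block as a fixed term, limma gave all tested transcripts 1 common variance from 2 residual degrees of freedom, so its q-values say little about single genes, and the log2 fold-changes of 0.34, -0.80 and -0.80 are unchanged by construction. The block changed no call. Without experiment 2, limma likewise gave all tested transcripts a common variance, so the q-values of that setting also say little about single genes. After quantile normalization the tested transcripts had a median change of 0.02 in place of -0.10, and the log2 fold-change of Ctnnb1 moved to 0.44, Lrp6 to -0.65, Sort1 to -0.66 and Gja1 to -0.34. The numbers of tested transcripts called higher and lower at q alone, 4369 and 12587, became 9979 and 8794 with that normalization, 8836 and 9779 with cyclic loess, 7543 and 11175 with median centring, and 2987 and 9024 with Benjamini-Hochberg adjustment, so the share of lower calls that stands beside Lrp6 and Sort1 depends on the scaling.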
